A study of Mus musculus with 8 samples.

Results

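The arm difference at 4 h of dexamethasone was measured on 4 arrays out of the 8 in the series. The 4 arrays were chosen by their titles alone. In 2 of them the title gives dexamethasone for 4 h plus tetracycline (the plus-titled arm), and in the other 2 it gives dexamethasone for 4 h and no tetracycline (the no-titled arm). Each difference below is the mean log2 expression of the plus-titled arm minus that of the no-titled arm, computed for 19938 genes. The remaining 4 arrays hold the same 2 arms at 0 h, without hormone, and serve here to show which differences were already there.

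All 8 arrays carried RNA of the mouse line 3134, a transformed derivative of C127 cells, which came from a mammary tumour of an RIII mouse. The labels give every group the same 2 integrated transgenes, A-fos and the tetracycline-responsive activator tTA. Cells of every group spent 48 h in charcoal-treated serum, which is low in steroids, before hormone was added. The 4 h groups then received 100 nM dexamethasone, a synthetic glucocorticoid, and tetracycline was used at 1 ug/ml. Whether the line is 1 clone, and whether replicate arrays came from separate cultures, is not given in the sources used here. The p-values therefore reflect the spread among these arrays alone, which may be technical. The design text states the question: what dexamethasone does to gene expression when A-fos is present or absent.

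AP-1 is a family of paired Fos and Jun proteins that binds short DNA elements in promoters and enhancers and drives genes of proliferation, invasion and matrix turnover in mammary cells. A-fos is a designed form of Fos in which the DNA-binding region is replaced by an acidic stretch, so that it pairs with Jun partners and keeps them off DNA. In a Tet-Off system tTA drives the transgene when tetracycline is absent and stops when it is added. Dexamethasone activates the glucocorticoid receptor, a nuclear receptor that induces and represses genes directly and can share regulatory regions with AP-1.

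For all 8 samples the treatment text gives the opposite tetracycline state to the title and to the Tet-Off characteristic. Which arm expressed A-fos was therefore not settled, and the arms are named by title only. Array medians lay between 5.36 and 5.47 log2 units, and replicate arrays of a group correlated at 0.9932 to 0.9956 across genes. Principal component 1 held 43.8% of the variance and set the arms apart, while component 2 (21.5%) set the times apart.

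Short elements were searched in the promoters of gene groups described below. Windows are shown for lists with many calls in 1 direction, and for 3 AP-1 targets because A-fos acts on AP-1, although none of those 3 genes was called. RefSeq promoters on mouse build GRCm38.p6, from 250 bases before to 50 after each start, were matched to 15563 of the 19938 genes (19116 promoters, since a gene can have several starts). Each pattern was searched on both strands, and none of these patterns contains another. The core of the ATF4 composite element, TGATGNAA, was found in 7 of 30 promoters of amino-acid and one-carbon genes (23.3%), in 4 of 11 promoters of aminoacyl-tRNA synthetases (36.4%) and in 3.08% of all promoters. The windows below end before the start site, run 5′ to 3′ on the gene's strand and carry the match, or its reverse complement, in capitals. Slc7a11 (chr3:50443623-50443709, minus strand) and Gars (chr6:55037941-55038000, plus strand) are genes named below. Chac1 (chr2:119351019-119351086, plus), Asns (chr6:7693210-7693262, minus) and Tars (chr15:11399659-11399703, minus) were added for their match after their values were seen.
Slc7a11: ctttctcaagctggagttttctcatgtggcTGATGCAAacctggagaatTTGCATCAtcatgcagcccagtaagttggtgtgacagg
Chac1: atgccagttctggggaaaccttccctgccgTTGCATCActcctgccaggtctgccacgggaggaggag
Asns: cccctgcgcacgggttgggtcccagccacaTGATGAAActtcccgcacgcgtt
Gars: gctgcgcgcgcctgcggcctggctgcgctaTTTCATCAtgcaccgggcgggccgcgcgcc
Tars: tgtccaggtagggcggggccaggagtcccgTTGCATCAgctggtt

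Genes of the cell cycle carried other elements. The E2F pattern TTTGGCGC was found in 6 of 43 promoters of DNA replication genes (14%) against 0.722% of all promoters. The pattern TTTGAA, the core of the cell cycle homology region, was found in 25 of 34 promoters of mitosis genes (73.5%) against 14.8% of all. Mcm6 (chr1:128359715-128359845, minus) has 2 matches to the E2F pattern, and Cdc20 (chr4:118437344-118437391, minus) and Ube2c (chr2:164769870-164769928, plus) have 1 match each to the TTTGAA pattern. Mcm5 (chr8:75109330-75109397, plus) was added for its match after its values were seen.
Mcm6: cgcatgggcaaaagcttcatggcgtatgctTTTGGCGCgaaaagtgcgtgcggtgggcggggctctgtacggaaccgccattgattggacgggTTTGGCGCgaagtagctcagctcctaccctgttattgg
Mcm5: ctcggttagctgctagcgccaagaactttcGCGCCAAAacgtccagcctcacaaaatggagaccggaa
Cdc20: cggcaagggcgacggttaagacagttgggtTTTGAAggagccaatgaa
Ube2c: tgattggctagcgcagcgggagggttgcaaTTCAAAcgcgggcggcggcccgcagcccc

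The E-box CACGTG, a site for the MYC and TFEB families, was found in 13 of 35 promoters of lysosomal genes (37.1%), in 9 of 35 promoters of ribosome biogenesis genes (25.7%) and in 8.26% of all promoters. The lysosomal channel gene Mcoln1 (chr8:3500418-3500509, plus) and the lysosomal membrane gene Lamp1 (chr8:13159070-13159160, plus) are shown for their several matches, chosen after their values were seen. The sterol pattern TCACNCCAC was found in 1 of 17 promoters of cholesterol synthesis genes (5.88%), against 1.18% of all promoters, and no window is shown for it. The AP-1 pattern TGANTCA was found in 6.88% of all promoters, in 5.22% of the promoters of genes called higher, in 4.83% of those of genes called lower and in 8 of 18 promoters of the AP-1 target list (44.4%). Plaur (chr7:24462384-24462450, plus), the urokinase receptor, is shown with Mmp3 (chr9:7445746-7445812, plus) and Mmp13 (chr9:7272449-7272513, plus), 2 matrix proteases added for their match after their values were seen.
Mcoln1: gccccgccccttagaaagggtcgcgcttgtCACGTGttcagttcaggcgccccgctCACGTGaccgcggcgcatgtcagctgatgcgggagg
Lamp1: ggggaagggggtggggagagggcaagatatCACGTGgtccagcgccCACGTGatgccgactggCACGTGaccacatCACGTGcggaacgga
Plaur: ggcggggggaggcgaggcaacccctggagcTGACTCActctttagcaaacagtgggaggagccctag
Mmp3: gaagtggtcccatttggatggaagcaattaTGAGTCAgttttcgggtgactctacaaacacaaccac
Mmp13: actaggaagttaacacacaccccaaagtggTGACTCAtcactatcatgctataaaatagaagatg

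At 4 h of hormone the arms differed at 1916 of 19938 genes, called at an adjusted p under 0.05 (limma, Benjamini-Hochberg over all genes, the same throughout). Of these, 1054 (5.29%) were higher and 862 (4.32%) were lower in the plus-titled arm. At least 2-fold differences were called for 103 genes higher (0.517%) and 60 genes lower (0.301%), and at least 4-fold differences for 4 and 2. The median difference over all genes was -0.01 log2, the median standard error (SE) 0.13, and the smallest difference called 0.37. The arrays of the 2 arms did not overlap in any called gene, and they did not overlap in 10298 of all 19938 genes either (51.7%). Leaving out 1 array at 4 h lowered the counts: without no-titled array 1 they were 359 higher and 295 lower, without no-titled array 2 they were 553 and 357, without plus-titled array 1 they were 578 and 495, and without plus-titled array 2 they were 432 and 311.

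**Figure D1:**
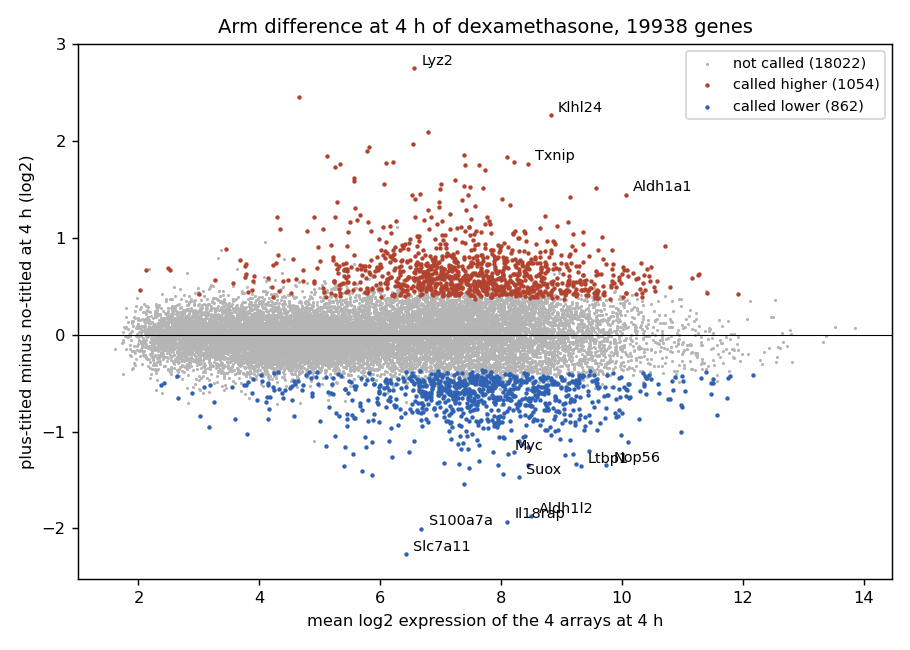
Mean log2 expression over the 4 arrays at 4 h (horizontal) against the plus-titled minus no-titled difference in log2 units (vertical), 1 point per gene for 19938 genes. The 1054 genes called higher (red) and the 862 called lower (blue) lie mostly within 2-fold, and the labelled genes, from Lyz2 at 2.75 to Slc7a11 at -2.27, lie outside the main cloud or mark the groups described in the text.

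The largest difference was that of Lyz2, which encodes lysozyme, an enzyme that cuts bacterial cell walls. Lyz2 read 5.09 and 5.27 log2 units in the no-titled arrays and 7.91 and 7.96 in the plus-titled arrays. Its difference was 2.75 ± 0.13 (SE; adjusted p = 9.91e-06), a 6.74-fold higher level in the plus-titled arm. The organic anion transporter gene Slco1a5 was low in the no-titled arrays, at 3.16 and 3.70, and reached 6.23 and 5.54 in the plus-titled arrays (difference 2.45 ± 0.33, adjusted p = 0.00157). Klhl24, which encodes a substrate adaptor of a cullin ubiquitin ligase, read 7.54 and 7.84 against 9.75 and 10.16. Ogn, a small leucine-rich proteoglycan of the matrix, read 5.39 and 6.09 against 7.69 and 7.98. These were the 4 genes that were at least 4-fold higher, and in each of them both plus-titled arrays stood above both no-titled arrays.

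Below them on the higher side stood genes of adhesion, signalling and cell death. The collagen-binding integrin subunit Itga1 differed by 1.90 ± 0.20, the adhesion receptor Adgrg1 by 1.83 ± 0.15 and the death receptor Fas by 1.76 ± 0.15. Fas itself read 4.56 and 4.34 in the no-titled arrays, among the dimmer signals, and 6.20 and 6.22 in the plus-titled arrays. Trp53inp1, a p53-induced nuclear protein that takes part in autophagy, differed by 1.85 ± 0.20, and Txnip, the thioredoxin-binding inhibitor of glucose uptake, by 1.77 ± 0.15. Klhl6, Tcp11l2, Npy4r, Crebrf, Gstm5 and Plscr2 complete the 15 largest, with differences of 1.78 to 1.97. All 15 differences kept their sign in each of the 8 fits that left out 1 array. The 15 were picked as the largest on these same arrays, so this is no independent support. Leaving out a 0 h array does not change the 4 h difference itself.

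On the lower side the largest difference was that of Slc7a11, the exchanger that imports cystine for glutathione synthesis, whose promoter window above holds 2 copies of the ATF4 core. Slc7a11 read 7.38 and 7.74 in the no-titled arrays and 5.22 and 5.36 in the plus-titled arrays, a difference of -2.27 ± 0.15 (adjusted p = 5.67e-05). S100a7a, a small calcium-binding protein of epithelia, read 7.63 and 7.74 against 5.60 and 5.75. Il18rap, the accessory subunit of the interleukin 18 receptor, read 9.06 and 9.07 against 7.09 and 7.17. In these 3 genes the gap between the arms was several times the gap between replicate arrays.

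Aldh1l2, a mitochondrial enzyme of the folate pathway, differed by -1.88 ± 0.11, and Bcat1, the cytosolic transaminase of branched-chain amino acids, by -1.54 ± 0.12. Suox, sulfite oxidase, differed by -1.47 ± 0.11, the cell-cycle gene Cdca7 by -1.44 ± 0.11 and the basal keratin Krt14 by -1.41 ± 0.17. Trib3, Ltbp1, Fabp4, Nop56, Gnl3, Nfil3 and Fyb2 make up the rest of the 15 largest, with differences of -1.34 to -1.45. Ltbp1, which stores latent TGF-beta in the matrix, read 10.03 and 9.96 against 8.63 and 8.64. Each of the 15 kept its sign in every fit without 1 array, but they too were picked as the largest on these arrays.

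**Figure D2:**
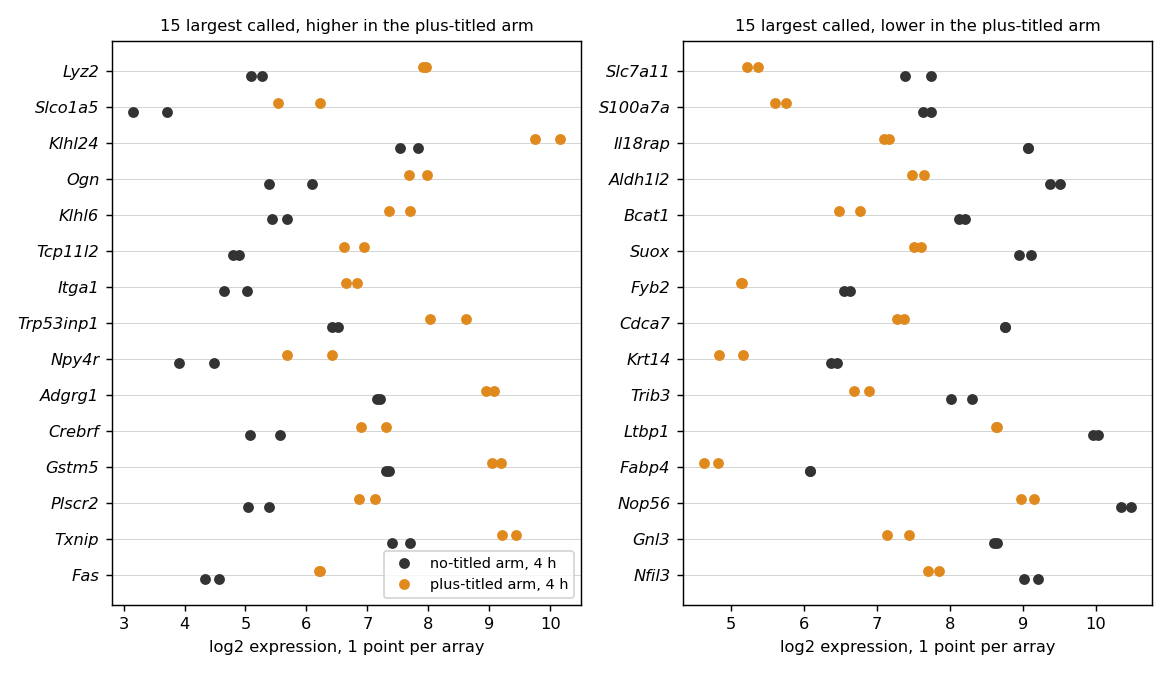
Log2 expression of the 15 largest called differences in each direction, with 1 point per array at 4 h (black, no-titled arm; orange, plus-titled arm). As in every called gene, the 2 points of one arm lie apart from the 2 points of the other. Values run from Lyz2 at 5.09 and 5.27 against 7.91 and 7.96 to Nfil3 at 9.21 and 9.01 against 7.69 and 7.84.

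Among 18 measured AP-1 subunit genes, 1 was called higher and 1 lower, shares (5.56% each) near those over all genes. Fos, which encodes the founding Fos protein, read 5.38 and 5.33 in the no-titled arrays and 6.15 and 6.0 in the plus-titled arrays. The difference of 0.71 ± 0.13 (adjusted p = 0.00685) lost its call without plus-titled array 1 (adjusted p = 0.053). Whether the Fos probes also read the A-fos transgene was not tested. Fosl1, which encodes the Fos relative Fra-1, read 7.13 and 7.02 against 6.22 and 6.42, a difference of -0.76 ± 0.16 (adjusted p = 0.0129). Its call was lost without no-titled array 1 (adjusted p = 0.0939), without no-titled array 2 (0.051) and without plus-titled array 1 (0.088). Jun, the main partner of Fos, read 8.16 and 8.11 against 8.09 and 7.86 (difference -0.16 ± 0.12, adjusted p = 0.494).

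Of 16 measured genes known as AP-1 targets, 2 were called higher (12.5%, beside 5.29% of all genes) and 1 lower (6.25%, beside 4.32%). The median difference was -0.15 log2. Timp1, an inhibitor of matrix proteases, read 9.23 and 9.46 in the no-titled arrays and 8.22 and 8.40 in the plus-titled arrays (difference -1.04 ± 0.15, adjusted p = 0.00209). The EGF receptor ligands Ereg and Hbegf were higher by 0.65 ± 0.17 and 0.55 ± 0.13, but only 1 of these 2 calls was left without no-titled array 2 and neither without no-titled array 1 or plus-titled array 1. Without plus-titled array 1, or with the replicate block, the list had 2 calls lower, and with a trended and robust variance or with the dimmest genes left out it had 4. With only the 4 arrays at 4 h none was higher. Plaur, with an AP-1 match in its window above, read 6.56 and 6.52 against 6.29 and 6.10 (difference -0.34 ± 0.13, adjusted p = 0.16). Mmp3 and Mmp13, also with a match, lay at 3.46 to 3.69 and at 4.15 to 4.54 on all 4 arrays, with differences of -0.07 (95% interval -0.37 to 0.23) and -0.18 (-0.50 to 0.14).

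Neighbouring lists of growth-factor signalling had few calls, some of them near the shares over all genes (5.29% higher, 4.32% lower). Shares called higher and lower were 13.6% and 4.55% for immediate-early genes and 0% and 12.5% for MAPK feedback genes. They were 33.3% and 0% for EGF receptor ligands and 4.76% and 9.52% for metalloproteinases and inhibitors. Of 22 immediate-early genes outside AP-1, 3 were called higher (0, 0, 0 and 1 without no-titled arrays 1 and 2 and plus-titled arrays 1 and 2, in that order, and 2 without either no-titled array at 0 h), and 1 lower. The gene called lower, Plk2, a kinase of the centrosome, read 8.52 and 8.43 against 7.27 and 7.27 (difference -1.21 ± 0.13, adjusted p = 0.000538). Dusp7 and Dusp14, phosphatases that switch off MAP kinases, were the 2 called among 16 MAPK feedback genes, at -1.21 ± 0.13 and -0.81 ± 0.11, with none called higher (1 at an unadjusted p under 0.05). Of 9 EGF receptor ligands, 3 were called higher, among them Ereg and Hbegf already counted as AP-1 targets, and none lower (0 at an unadjusted p under 0.05). Without the same 4 arrays in turn the count was 0, 1, 0 and 2. Among 21 matrix metalloproteinases and their inhibitors, 2 were lower, Timp1 and Mmp19 (-0.88 ± 0.13), and 1 was higher, Timp2 (0.44 ± 0.11), whose call was lost in each fit without a 4 h array or without a no-titled array at 0 h. No call was made among 6 plasminogen activators and inhibitors (2 lower at an unadjusted p under 0.05) or 17 ADAMTS proteases (0 at an unadjusted p under 0.05).

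Genes that dexamethasone is known to induce were called in both directions. Of 36 measured, 5 were higher (13.9%, beside 5.29% of all genes) and 9 lower (25%, beside 4.32%), with a median of -0.09 log2. Members of this list, as of all lists here, were chosen with earlier results of these data known. The shares are therefore no independent test of the list. The receptor gene Nr3c1 read 8.31 and 8.38 in the no-titled arrays and 8.33 and 8.26 in the plus-titled arrays (difference -0.05 ± 0.10, adjusted p = 0.864). For the list of the receptor, its cofactors and chaperones, shares were 0% higher and 5% lower, beside 5.29% and 4.32% of all genes. Among 20 genes of the receptor, its cofactors and chaperones, 1 was called, the co-chaperone Fkbp4 at -0.42 ± 0.10, and without any 1 of the 4 h arrays or of the no-titled arrays at 0 h none was. Without no-titled arrays 1 and 2 and plus-titled arrays 1 and 2, in that order, the count of hormone-induced genes called higher was 2, 3, 4 and 2, and without either no-titled array at 0 h it was 3.

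The called members of the hormone-induced list pulled in both directions. Lcn2, the iron-binding secreted protein lipocalin 2, read 8.27 and 8.59 against 9.83 and 9.88 (difference 1.42 ± 0.15, adjusted p = 0.000463). Sult1a1, a phenol sulfotransferase, read 4.95 and 4.59 against 6.24 and 6.47 (1.59 ± 0.19, adjusted p = 0.000776). The 9 members lower in the plus-titled arm were led by Suox, Nfil3, Orm3, Rgs2 and Orm1. Nfil3, a repressor of the basic leucine zipper family, read 9.21 and 9.01 against 7.69 and 7.84. Orm3 and Orm1, which encode acid glycoproteins of the acute phase, differed by -1.34 ± 0.16 and -1.09 ± 0.16, and Rgs2, a brake on G-protein signals, by -1.21 ± 0.19.

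Differences of 5 further hormone targets, chosen after their values were seen, did not pass the test. Fkbp5, the co-chaperone that feeds back on the receptor, read 11.50 and 11.51 against 11.47 and 11.56 (difference 0.01, 95% interval -0.25 to 0.28). The interval was -0.15 to 0.64 for Tsc22d3, -0.37 to 0.21 for the clock gene Per1, -0.18 to 0.36 for the kinase Sgk1 and -0.43 to 0.56 for the metallothionein Mt2. Among 15 acute-phase genes, 1 was called higher (Lcn2, 6.67%) and 2 lower (Orm1 and Orm3, 13.3%). Over all genes 5.29% were called higher and 4.32% lower. Of 26 inflammatory mediators, which the hormone commonly represses, none was called (5 higher and 1 lower at an unadjusted p under 0.05). With a trended and robust variance, or with the replicate block, 1 was higher, and with the dimmest genes left out 3 were higher and 1 lower.

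ATF4 is the transcription factor that cells switch on when amino acids run short, and of 28 measured genes of its amino-acid and one-carbon programme, 16 were called lower and none higher (0 at an unadjusted p under 0.05). The median of the list was -0.59 log2, beside -0.01 over all genes, and 26 of the 28 differences were below 0. Without each 4 h array in turn the count of calls was 13. Shmt2, the mitochondrial enzyme that splits serine for one-carbon units, read 9.78 and 9.83 against 8.56 and 8.60 (difference -1.23 ± 0.11, adjusted p = 0.000176). Trib3, a pseudokinase induced by ATF4, read 8.02 and 8.30 against 6.88 and 6.68. Atf4 itself read 9.27 and 9.37 against 8.50 and 8.46, a difference of -0.84 ± 0.10, and Asns, asparagine synthetase, read 11.98 and 11.99 against 11.22 and 11.08. The last 2 genes were chosen after their values were seen. Not all members moved: Ddit3, also chosen so, differed by -0.24 ± 0.12 (adjusted p = 0.248).

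Aminoacyl-tRNA synthetases load tRNAs for protein synthesis. Of 18 measured, 13 were called lower and none higher (0 at an unadjusted p under 0.05), the median was -0.66 log2, and all 18 differences were below 0. Lars, the leucine enzyme, read 9.42 and 9.44 against 8.47 and 8.42 (difference -0.98 ± 0.10, adjusted p = 0.000424). Gars, the glycine enzyme, read 10.12 and 10.02 against 9.21 and 8.97. Vars and Iars, for valine and isoleucine, differed by -0.89 ± 0.14 and -0.84 ± 0.11. The stress genes of the endoplasmic reticulum, which share part of this signalling, mostly did not pass the test. Their shares were 4.35% higher and 8.7% lower, beside 5.29% and 4.32% of all genes. Among 23 measured, 2 were called lower, Herpud1 (-0.90 ± 0.11) and Xbp1 (-0.60 ± 0.11, call lost without plus-titled array 2, adjusted p = 0.0586), and 1 higher, Sel1l, whose call was lost without any 4 h array and without either no-titled array at 0 h.

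Among genes of growth, Myc, the growth-promoting transcription factor, read 8.74 and 8.71 in the no-titled arrays and 7.52 and 7.47 in the plus-titled arrays (difference -1.23 ± 0.12, adjusted p = 0.000328). Mxd4, which competes with Myc for its partner MAX, ran the other way, at 8.39 and 8.43 against 9.23 and 9.27 (0.84 ± 0.12, adjusted p = 0.00186). No other gene among 11 of the MAX network was called. Of 38 ribosome biogenesis factors, 29 were called lower and none higher (0 at an unadjusted p under 0.05), with a median of -0.70 log2 and all 38 differences below 0. Nop56, a core protein of the small nucleolar particles that guide ribosomal RNA methylation, read 10.48 and 10.34 against 9.15 and 8.97 (-1.35 ± 0.12). Gnl3, nucleostemin, differed by -1.34 ± 0.14, and Dkc1, the pseudouridine synthase of ribosomal RNA, by -1.13 ± 0.15. Without no-titled arrays 1 and 2 and plus-titled arrays 1 and 2, in that order, 15, 18, 25 and 14 of these factors were called.

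Replication copies the genome before each division. Of 44 measured genes of replication and nucleotide synthesis, 33 were called lower and none higher (0 at an unadjusted p under 0.05). Their median was -0.64 log2, and all 44 differences were below 0. Mcm2 and Mcm6, subunits of the replicative helicase, differed by -0.90 ± 0.14 and -0.86 ± 0.11, with Mcm6 at 10.19 and 10.12 against 9.34 and 9.25. Cdt1, which loads that helicase, read 8.40 and 8.36 against 7.55 and 7.46, and Chaf1b, a histone chaperone at the replication fork, differed by -0.85 ± 0.13. Without the 4 h arrays in the order above, 13, 18, 26 and 14 of the 44 were called.

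Of 40 measured mitosis and spindle genes, 10 were called lower and none higher (0 at an unadjusted p under 0.05), the median was -0.41 log2, and all 40 differences were below 0. The count of calls was 1, 2, 3 and 1 without the 4 h arrays in turn, 7 without either no-titled array at 0 h and 17 without either plus-titled array at 0 h. It was 24 with a trended and robust variance, 20 with the replicate block or with the dimmest genes left out, and 16 after cyclic loess. Ube2c, the ubiquitin-conjugating enzyme that starts cyclin destruction, read 7.95 and 7.88 against 7.42 and 7.15. The mitosis gene Cdc20 read 8.50 and 8.45 against 7.83 and 7.99. Both calls are among those lost, Ube2c without no-titled array 1 and plus-titled array 2 (adjusted p = 0.07245 and 0.0817), and Cdc20 without no-titled arrays 1 and 2 and plus-titled array 1 (0.0825, 0.0533 and 0.079).

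Regulators of entry into the cycle had calls in both directions, 28.6% higher and 14.3% lower, beside 5.29% and 4.32% of all genes. Among 14 D cyclins, CDK inhibitors and retinoblastoma genes, 4 were called higher (2, 2, 3 and 2 without the 4 h arrays in turn, 2 without either no-titled array at 0 h) and 2 lower (0, 0, 1 and 0, and 1 without either no-titled array at 0 h). Rb1, the retinoblastoma protein that holds E2F in check, read 6.53 and 6.49 against 7.35 and 7.16 (difference 0.75 ± 0.12, adjusted p = 0.00349), and Ccnd3, cyclin D3, read 7.47 and 7.41 against 8.07 and 8.03. Mitochondrial ribosomal proteins were largely uncalled, with 6 of 77 lower (1, 1, 2 and 1 without the 4 h arrays, 2 without either no-titled array at 0 h) and 1 higher (0, 0, 1 and 0). The clearest of them, Mrps18b, read 9.25 and 9.33 against 8.41 and 8.25. In this list 1.3% were called higher and 7.79% lower, beside 5.29% and 4.32% of all genes, and 60 differences were below 0. Of 80 respiratory chain genes the only call was Ndufaf4, an assembly factor of complex I, at -1.05 ± 0.12. The shares were 0% higher and 1.25% lower there, and 0% and 2.56% for proteasome subunits. Of 39 proteasome subunits 1 was called, Psmd5, at -0.66 ± 0.12 (lost without no-titled array 2 and plus-titled array 1, adjusted p = 0.05295 and 0.0511), and 2 were called without either plus-titled array at 0 h.

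Cholesterol synthesis builds sterols from acetate in a chain of enzymes that SREBP-2 controls together. Of 17 measured genes, 12 were called higher and none lower (0 at an unadjusted p under 0.05), the median was 0.63 log2, and all 17 differences were above 0. Idi1, which isomerises the isoprene unit, read 8.30 and 8.46 against 9.29 and 9.22 (difference 0.87 ± 0.12, adjusted p = 0.00152). Lss, which closes the sterol rings, read 7.85 and 7.99 against 8.84 and 8.94, and Nsdhl, which removes methyl groups, read 8.63 and 8.79 against 9.64 and 9.62. Without no-titled array 1 the count fell to 4 and without plus-titled array 2 to 5, with 11 and 9 without the other 2 arrays at 4 h.

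Neighbouring lists were those of sterol handling and of fatty acid synthesis. Of all genes 5.29% were called higher and 4.32% lower. The shares were 35.7% and 0% for sterol handling and 12.5% and 4.17% for fatty acid synthesis. Of 14 genes of sterol uptake, sensing and efflux, 5 were called higher and none lower (0 at an unadjusted p under 0.05), and 2, 3, 4 and 2 without the 4 h arrays in turn. Npc2, which carries cholesterol out of lysosomes, read 8.26 and 8.42 against 9.07 and 9.13, and Mylip, which degrades the LDL receptor, read 7.21 and 7.40 against 8.03 and 8.16. Fatty acid synthesis had 20 of 24 genes not called, with 17 differences above 0. Among its 24 genes 3 were higher (1, 1, 2 and 1 without the 4 h arrays), led by the acetyl-CoA synthetase Acss2 at 7.0 and 7.31 against 8.20 and 8.40, and 1, Elovl7, was lower, a call lost without any of the 4 arrays.

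Lysosomes break down material taken up or recycled by the cell. Of 39 measured hydrolases and acidification genes, 18 were called higher (46.2%), 1 lower and 20 not called, with a median of 0.34 log2 and 34 differences above 0. Lipa, the acid lipase that frees cholesterol from its esters, read 7.43 and 7.51 against 8.62 and 9.0 (difference 1.34 ± 0.14, adjusted p = 0.000453). Ctso, a cathepsin, read 6.75 and 6.79 against 7.91 and 8.20, Neu1, a sialidase, 5.94 and 5.98 against 7.04 and 7.31, and Atp6v0d1, a subunit of the proton pump, 8.31 and 8.25 against 9.30 and 9.19. Mcoln1, with 2 E-boxes in its window, differed by 0.60 ± 0.12 (adjusted p = 0.00982), while Lamp1, with 4, differed by 0.26 ± 0.10 (adjusted p = 0.17). Without the 4 h arrays in turn 8, 9, 12 and 8 of the list were called higher and none lower.

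Autophagy genes, which deliver cargo to lysosomes, included 8 of 26 called higher and none lower (0 at an unadjusted p under 0.05), with a median of 0.26 log2. Map1lc3b, which encodes the membrane mark of autophagosomes, read 7.78 and 7.88 against 8.61 and 8.63 (0.79 ± 0.10, adjusted p = 0.0014), and Atg14, of the initiating lipid kinase complex, 5.80 and 5.83 against 6.58 and 6.62. The count was 2, 4, 5 and 3 without the 4 h arrays and 6 without either no-titled array at 0 h. Of 28 genes of the TXNIP and insulin-FoxO group, which respond to glucose and to low insulin signalling, 12 were called higher (5, 9, 11 and 5) and 1 lower, with a median of 0.30 log2. Txnip read 7.40 and 7.70 against 9.21 and 9.43, Selenop, the selenium carrier, 4.25 and 4.53 against 5.85 and 6.39, and Ccng2, a cyclin of resting cells, 5.53 and 5.66 against 6.63 and 6.81. The gene called lower was Igfbp6, a binding protein of insulin-like growth factor II, at -0.81 ± 0.11.

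**Figure D3:**
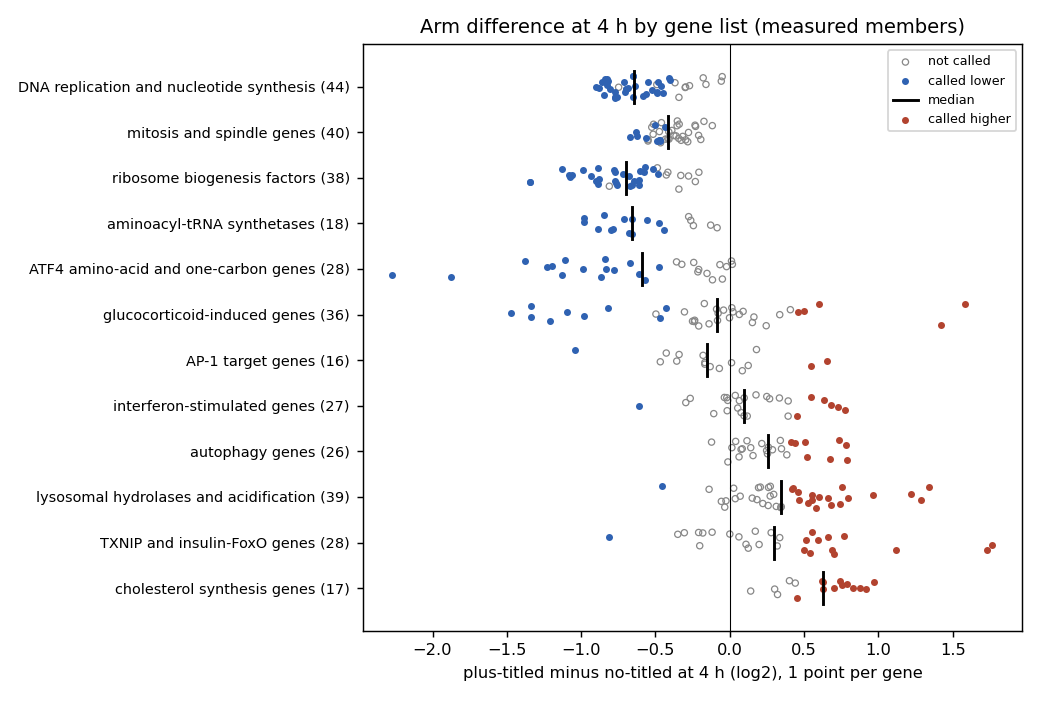
Plus-titled minus no-titled difference at 4 h in log2 units for each measured member of 12 gene lists, with the number measured in brackets, filled points for called genes, open points for the rest and a black bar at the median. Replication, ribosome biogenesis, synthetase and ATF4 genes lie below 0 (medians -0.64, -0.70, -0.66 and -0.59), cholesterol genes above 0 (0.63), and AP-1 targets and glucocorticoid-induced genes on both sides.

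Matrix and adhesion lists had calls in both directions, and for collagens (6.67% each way) and matricellular proteins (8.11% each way) the shares were near those over all genes. For lysyl oxidases and collagen processing they were 5.88% higher and 23.5% lower, beside 5.29% and 4.32% of all genes. Among 17 lysyl oxidases and collagen-processing genes 4 were lower and 1 higher (2 without either plus-titled array at 0 h). Loxl1, which cross-links elastin, read 8.27 and 8.08 against 7.24 and 7.19, and Pcolce2, which aids procollagen cleavage, differed by -0.85 ± 0.14, whereas Plod2, which hydroxylates collagen lysines, read 8.55 and 8.48 against 9.31 and 9.19. Of 30 collagen genes 2 were higher and 2 lower (1 and 1 without each 4 h array), with Col4a5 of the basement membrane at 7.65 and 7.60 against 8.44 and 8.40 and Col1a2 of fibrillar collagen at 12.06 and 12.06 against 11.34 and 11.48. Without any array at 0 h 1 collagen gene was lower.

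Among 37 matricellular and adhesion proteins 3 were higher and 3 lower. Postn and Vcan, matrix proteins of remodelling tissue, differed by -1.27 ± 0.13 and -1.06 ± 0.12, and Ccn4 and the proteoglycan gene Fmod by 1.10 ± 0.13 and 1.07 ± 0.17. Of 18 YAP-TEAD target genes 5 were higher (3, 2, 2 and 3 without the 4 h arrays) and 1 lower (0 without each of them). Nt5e, the enzyme that makes extracellular adenosine, read 6.72 and 7.04 against 8.60 and 8.58 (1.71 ± 0.13, adjusted p = 8.79e-05), and Ccn2, connective tissue growth factor, read 7.26 and 7.24 against 8.38 and 8.41. Ltbp1 was 1 of 2 genes called lower among 21 TGF-beta and BMP targets (1, 1, 2 and 1, and 3 without either plus-titled array at 0 h), where 3 were higher (2, 1, 2 and 3). Of 23 smooth-muscle actin genes 3 were higher, with Cald1 at 0.85 ± 0.11 and Cnn2 at 0.74 ± 0.10, and 1 lower (0 without each 4 h array). Efnb1 and Efnb2, 2 membrane ligands of Eph receptors, ran in opposite directions, at 1.39 ± 0.15 and -0.85 ± 0.12, among 20 genes with 2 called higher and 1 lower.

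Redox and detoxification enzymes also had calls in both directions. Beside 5.29% higher and 4.32% lower over all genes, the shares were 20.7% and 10.3% for aldehyde dehydrogenases and retinoid genes. They were 15.8% and 7.89% for glutathione transferases and NRF2 genes, and 3.23% and 12.9% for glycolysis and hypoxia genes. Of 29 aldehyde dehydrogenases and retinoid genes 6 were higher (3, 4, 4 and 3 without the 4 h arrays) and 3 lower. Aldh1a1 and Aldh1a7, which oxidise retinal and other aldehydes, read 9.29 and 9.39 against 10.74 and 10.83, and 6.64 and 6.86 against 8.35 and 8.67. Aldh18a1, which makes proline and belongs to the ATF4 programme, was lower at 10.14 and 9.95 against 8.95 and 8.75. Among 38 glutathione transferases and NRF2 genes 6 were higher (3, 5, 5 and 3) and 3 lower. Gstm5, a transferase, read 7.31 and 7.35 against 9.04 and 9.19, and Mgst2, its microsomal relative, 7.76 and 8.15 against 6.82 and 6.99. Of 31 genes of glycolysis and hypoxia 4 were lower (1 without each 4 h array) and 1 higher (0 without each of them and without either no-titled array at 0 h), with Car9, a carbonic anhydrase induced by low oxygen, at -0.77 ± 0.12.

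Smaller groups made up the rest, set here beside 5.29% higher and 4.32% lower over all genes. Shares higher and lower were 22.2% and 3.7% for interferon-stimulated genes, 16.7% each way for p53 targets and 0% and 10% for clock genes. They were 3.33% and 6.67% for keratins and identity genes and 8.7% each way for lipid uptake. For S100 proteins they were 6.67% and 20%, and for RGS regulators 0% and 6.25%. Of 27 interferon-stimulated genes 6 were higher (1, 3, 2 and 2 without the 4 h arrays) and 1 lower (1, 0, 0 and 1). B2m, the light chain of MHC class I, read 10.90 and 11.02 against 11.54 and 11.64, a call lost without no-titled array 1 (adjusted p = 0.063) and plus-titled array 2 (0.0551). Of 24 p53 targets 4 were higher (2, 3, 3 and 2), with Trp53inp1 and Fas the largest, and 4 lower (2, 2, 3 and 3), among them Plk2 and Phlda3 (-0.75 ± 0.12). Nfil3 and Bhlhe41 were the 2 called lower among 20 clock genes (1, 2, 1 and 1), with none higher (1 at an unadjusted p under 0.05) except 1 without either plus-titled array at 0 h. Of 30 keratins and identity genes Krt7 was higher (0.71 ± 0.12), and Krt14 and S100a4 (-0.86 ± 0.14) were lower. Among 23 genes of lipid uptake and fat cells 2 were higher (1 without each 4 h array) and 2 lower (1, 2, 2 and 1, and 3 without either plus-titled array at 0 h), with Fabp4, a fatty acid carrier, at 6.08 and 6.08 against 4.63 and 4.82. Of 15 S100 proteins 3 were lower, S100a7a the largest, and 1 higher (1, 0, 0 and 0), and of 16 RGS regulators only Rgs2 was called, at 6.88 and 7.27 against 5.58 and 6.15.

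Markers of cell type were read against the median over genes at 4 h, averaged over the 2 arms. A marker was counted as above it if its mean in either arm was above it. Over 12 luminal markers the mean level was 5.34 to 5.50 per array, and 4 of the 12 lay above that median in 1 arm or both. Epcam and Cdh1, for epithelial adhesion proteins, were named because their p was the smallest of this list. They read 4.06 to 4.58 and 4.84 to 5.19, below the median of every array at 4 h. The mean over 10 fibroblast markers was 6.24 to 6.38, and 7 of them lay above the median over genes in 1 arm or both. No luminal marker was called (1 lower at an unadjusted p under 0.05), nor any of 6 milk protein genes (0), 7 endothelial genes (0) or 6 corticotroph genes (1 lower). Of 8 leukocyte markers Lyz2 alone was called, and it was the 1 member counted as above the median over genes. In the no-titled arrays Lyz2 lay below the array medians. The leukocyte mean was 4.46 and 4.54 in the no-titled arrays and 4.83 and 4.72 in the plus-titled arrays, and without Lyz2 the mean of the other 7 was 4.37 and 4.44 against 4.39 and 4.26. Among the remaining markers, Fabp4 was the call of 6 adipocyte genes, Krt14 (lower) and Acta2 (higher) were those of 9 basal genes, and Postn and Col1a2 (lower) and Pdgfra (higher) those of 10 fibroblast genes. The call of Pdgfra was lost without any 1 of the 4 h arrays, and that of Acta2, at 5.99 and 5.62 against 7.87 and 6.63, without no-titled array 1 or 2, plus-titled array 1 or either no-titled array at 0 h.

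The arms already differed at 0 h, on 4 other arrays, at 1236 genes higher (6.2%) and 634 lower (3.18%) in the plus-titled arm. Of the 1054 genes higher at 4 h, 748 were also called higher at 0 h, which is 71% of the 4 h list and 60.5% of the 0 h list. Of the 862 lower at 4 h, 410 were also called lower at 0 h, 47.6% of the 4 h list and 64.7% of the 0 h list. In all, 1845 of the 1916 genes called at 4 h had the same sign at 0 h. Across genes, which are not independent replicates, the 2 differences correlated at r = 0.72 (Spearman rho 0.57). Both contrasts share the variance estimate of the fit; with each time fitted alone, 592 genes were higher and 297 lower at both times. Slc7a11 shows the pattern, with a difference of -2.27 at 4 h and at 0 h, as does Lyz2, with 2.75 and 2.44. The lists differed at 0 h too. Called lower were 17 ATF4, 11 synthetase, 22 replication, 21 ribosome biogenesis and 13 mitosis genes. Their 0 h medians were -0.68, -0.53, -0.47, -0.49 and -0.40 log2. Called higher were 14 cholesterol, 21 lysosomal, 9 autophagy and 9 TXNIP and insulin-FoxO genes, with medians of 0.84, 0.41, 0.28 and 0.19. In the last 2 lists 1 and 2 genes were lower.

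Called in opposite directions at the 2 times were 3 genes, Macroh2a2, Dipk2a and Arrdc3. Macroh2a2, a histone variant gene, was dim throughout, at 3.57 to 4.74 at 4 h, and differed by -0.87 ± 0.16 at 4 h and 0.62 at 0 h. Arrdc3, an arrestin-like adaptor related to Txnip, differed by 0.54 ± 0.14 at 4 h and -0.56 at 0 h, and Dipk2a by 0.44 ± 0.12 and -0.64. None of the 3 had a change of the arm difference that passed the test, and at 4 h the calls of Macroh2a2 were lost without no-titled array 1 and plus-titled array 2 (adjusted p = 0.07245 and 0.0717), those of Arrdc3 without the same arrays (0.277 and 0.254) or either no-titled array at 0 h (0.0579), and those of Dipk2a without each 4 h array (0.0744 to 0.24) or either no-titled array at 0 h (0.05004).

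**Figure D4:**
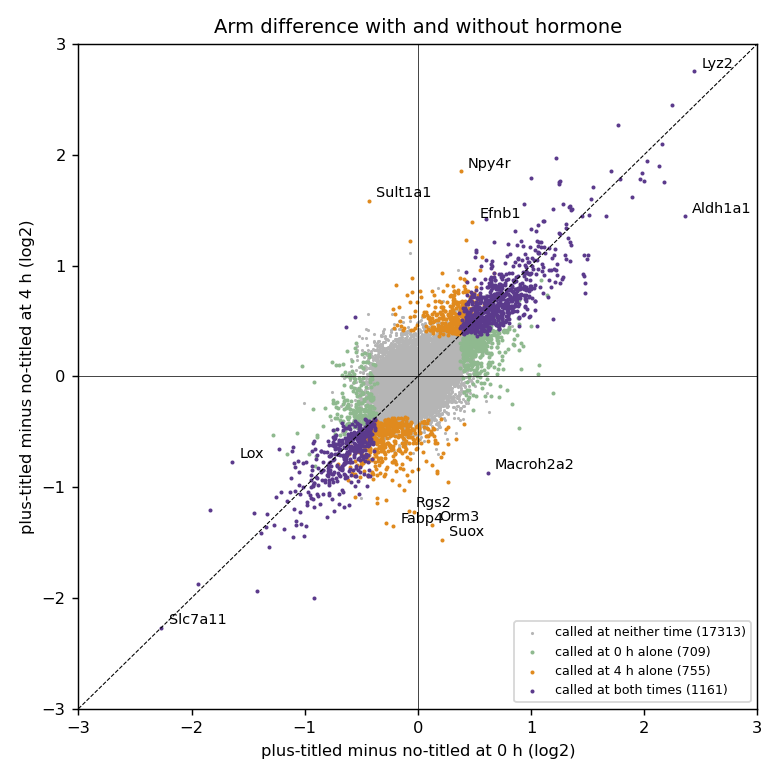
Plus-titled minus no-titled difference at 0 h (horizontal) against that at 4 h (vertical), both in log2 units, 1 point per gene, coloured by the times at which the gene was called; the dashed line marks equal differences. Genes called at both times (purple) lie mostly along the line, with 748 higher and 410 lower at both. Another 3, Macroh2a2 among them, were called in opposite directions and lie away from it. Suox, Orm3 and Fabp4, at 0.22, 0.13 and -0.22 at 0 h, lie at -1.47, -1.34 and -1.35 at 4 h.

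The difference between the arm differences was tested for every gene, and 1 passed (0.00502%), Suox. An unadjusted p under 0.05 was found for 1018 of 19938 genes, close to the share this threshold passes when no gene changes. Suox encodes sulfite oxidase, the mitochondrial enzyme that turns sulfite into sulfate. At 0 h it read 5.83 and 5.80 in the no-titled arm and 6.0 and 6.06 in the plus-titled arm. At 4 h it read 8.95 and 9.10 in the no-titled arm and 7.51 and 7.60 in the plus-titled arm. Suox thus went up by 3.21 log2 with hormone in the no-titled arm and by 1.53 in the plus-titled arm. The arm difference was 0.22 ± 0.11 at 0 h and -1.47 ± 0.11 at 4 h, a change of -1.69 (adjusted p = 0.00779). Its call was kept without no-titled array 1 at 4 h (adjusted p = 0.0319) and without plus-titled array 2 at 4 h (0.0252), and was lost without each of the other 6 arrays, with adjusted p of 0.0526 to 0.0843 and changes of -1.61 to -1.72.

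Among the genes with the smallest p for this change, the following 5 did not pass the test. Orm3 went up by 3.26 log2 with hormone in the no-titled arm, from 4.73 and 4.69 to 7.98 and 7.95, and by 1.79 in the plus-titled arm, from 4.79 and 4.88 to 6.36 and 6.90 (change of the arm difference -1.46, adjusted p = 0.129). Sorbs2, an adaptor of actin and adhesion sites, went up by 2.00 and 0.96 (change -1.04, adjusted p = 0.214). For Sult1a1 the response was in the plus-titled arm, from 3.86 and 4.45 to 6.24 and 6.47, while the no-titled arm read 4.58 and 4.59 before and 4.95 and 4.59 after (change 2.02, adjusted p = 0.126). Lox, a lysyl oxidase, was lower in the plus-titled arm at both times, by -1.64 at 0 h and -0.77 at 4 h, and went up with hormone by 1.27 in that arm (change 0.87, adjusted p = 0.197). The nuclear receptor gene Nr1h4 (FXR) read 5.98 and 6.35 against 4.88 and 5.00 at 4 h and differed by -0.03 at 0 h (change -1.20, adjusted p = 0.158).

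**Figure D5:**
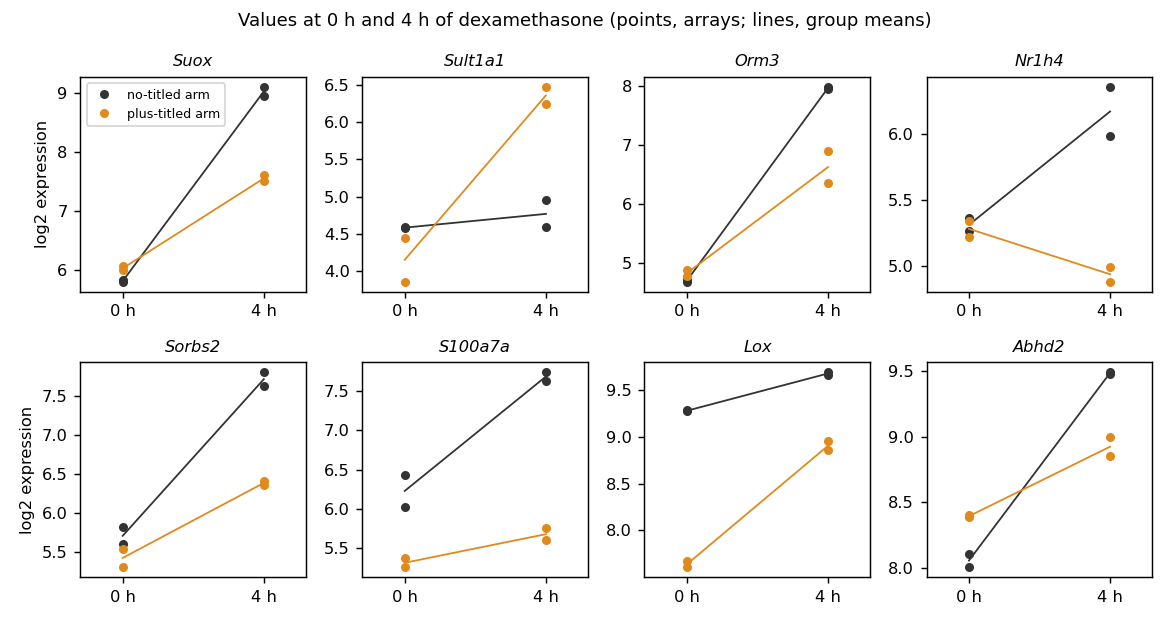
Log2 expression of 8 genes at 0 h and 4 h of dexamethasone, with 1 point per array and lines joining the group means (black, no-titled arm; orange, plus-titled arm). Suox, Orm3 and Sorbs2 differ between the arms by 0.22, 0.13 and -0.28 at 0 h and end lower in the plus-titled arm, Sult1a1 ends higher there, and Suox alone passed the test for a change of the arm difference (-1.69, adjusted p = 0.00779).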

How the data were processed

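Expression in mouse 3134 cells was measured on 8 Affymetrix arrays, 2 in each of 4 groups. The authors deposited log2 values for 28888 probe sets; RMA, a method that corrects background, quantile-normalizes and summarises probes, and the program Affymetrix Expression Console are named per the submitters' processing notes, with versions not given in the sources used here. Quantile normalization gives the arrays nearly the same overall distribution, so a shift of most genes in 1 direction could not be seen. Probe sets were named from the platform annotation: 21789 had 1 symbol, 1621 several and 5478 none, and 21698 were updated by gene number to RefSeq symbols. A gene took its brightest probe set, which left 19938 genes. No value was filtered or offset. Counts of reads and depth do not apply to arrays, and 2 arrays a group limit the precision.

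Differences were fitted with limma 3.58.1 in R 4.3.3 on all 8 arrays with a mean per group, two-sided, and adjusted by Benjamini-Hochberg over 19938 genes. Intervals are 95% intervals from the same fit. The fit was tested on simulated data. Members and the 54 lists were chosen with earlier results of these data known. Named were the 15 largest called differences in each direction, up to 4 called members of each list (2 where none was called), up to 10 called genes with the smallest p for the change with hormone, those called in opposite directions at the 2 times, and Fos, Fosl1, Jun and Nr3c1; other names are marked where they occur. Alternatives were other variance settings, scalings, filters and probe-set rules, a replicate block, and leaving out each array.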

Additional observations from a re-analysis of the deposited data

Results flagged for a closer look

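Suox stood out because its arm difference at 4 h differed from that at 0 h by a test of the difference itself. The change was -1.69 log2 (adjusted p = 0.00779, limma over 19938 genes). Both plus-titled arrays at 4 h lay below both no-titled arrays, and both plus-titled arrays at 0 h lay above both no-titled arrays. Such separation is common, since the arms did not overlap at 4 h in 51.7% of all genes. Without 1 array the change ranged from -1.61 to -1.77, and the call depended on single arrays, as given above.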

How the results depend on the processing

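With 2 arrays a group, the counts moved with single arrays. Leaving out each array in turn gave 359 to 1149 genes higher and 295 to 979 lower at 4 h, 413 to 1103 higher and 176 to 549 lower at 0 h, and 0 to 2 genes with a changed arm difference. Asking for at least 2-fold gave 103 and 60 at 4 h and 107 and 40 at 0 h. The change count was 11 with a trended and robust variance, 7 with the dimmest genes left out and 2 with array medians subtracted. Of 156 named genes called, 102 were called in every fit run, and none reversed. Uncalled Csn1s2a ranged from -0.0337 without plus-titled array 1 to 0.3539 without plus-titled array 2, with -0.0057 without no-titled array 1, and uncalled Tek from -0.3256 without plus-titled array 2 to 0.1046 without plus-titled array 1, with 4e-04 without no-titled array 2. Signal near background limits dim genes.

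Replicate numbers are shared by the groups, and deviations of same-numbered arrays correlated weakly, at -0.0191 to 0.133. The largest value, 0.133, was that between the arms at 4 h. With the replicate number as a block, 1864 of the 1916 calls at 4 h remained and 244 were added. Fitting only the arrays of 1 time could not be run for the change.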
